A study of Mus musculus with 6 samples.

Results

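The miRNAs encoded inside the Hox clusters were examined in small RNA libraries of muscle cell vesicles and bone cells. The members were taken by name, as the precursor entries mir-10a, mir-10b, mir-196a-1, mir-196a-2, mir-196b and mir-615, and all 6 were present among the 1006 entries of the deposited table. There were 2 libraries each of Myo-EVs and FFSS-Myo-EVs, and 1 library each of primary osteoblasts (OB) and primary bone marrow cells (BM), all made from 90 ng of total RNA. Myo-EVs are extracellular vesicles that C2C12 cells, a line of mouse myoblasts grown from leg muscle, released into EV-depleted medium over 48 hr. FFSS-Myo-EVs came from C2C12 cells kept for the same 48 hr on an orbital shaker, which gave a calculated fluid flow shear stress (FFSS) of 6 dyn/cm2. No treatment beyond shaking distinguished the 2 vesicle groups in the study's methods, whereas the labels carry 1 growth protocol for all libraries, which speaks of vitamin D and dexamethasone and not of FFSS. Mice of a mixed C57BL/6J and 129/SvJ background gave the OB and BM cells, and the labels assign that background to the C2C12 libraries as well. The labels give an age of 8 to 10 weeks for OB and BM, whereas the methods describe osteoblasts pooled from the calvariae of newborn male mice and used after passage, and bone marrow cells from the tibiae of a single adult male mouse.

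Hox genes are transcription factors whose order along the chromosome follows the order in which they are switched on from head to tail of the embryo. Genes with high paralog numbers mark posterior positions and the outer limb segments, whereas much of the skull vault forms from cells with little or no Hox expression. The miRNAs lie between or within the Hox genes, are often transcribed with their neighbours, and silence Hox mRNAs among their targets. A mature miRNA recognizes its targets mainly through its seed, bases 2 to 8.

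**Figure D1:**
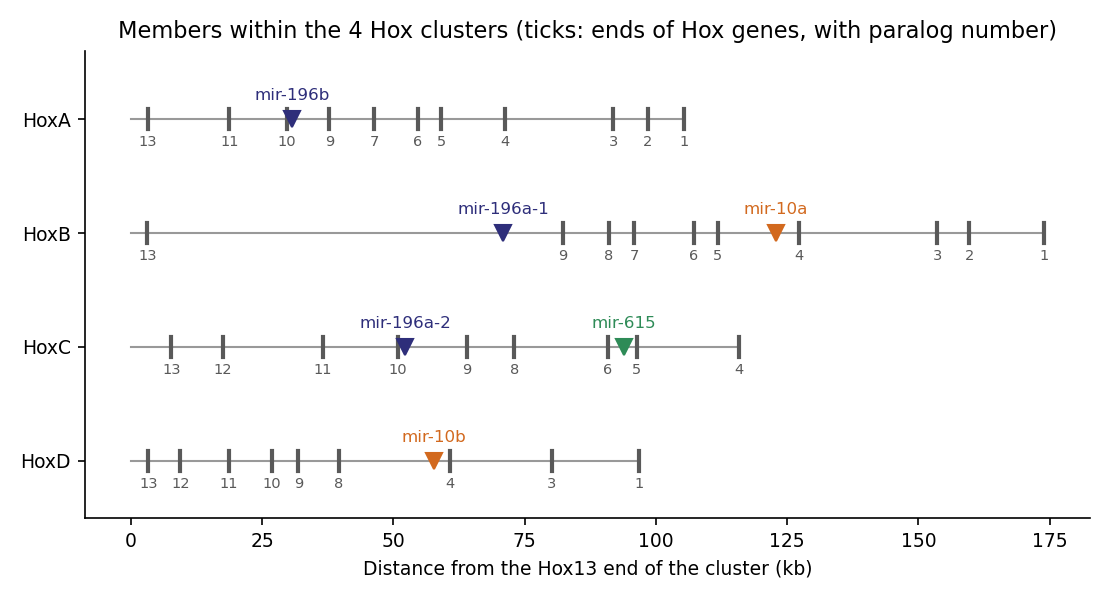
Position of the 6 members (triangles) in the 4 Hox clusters, in kb from the Hox13 end of each cluster. Ticks with a paralog number mark the ends of the Hox genes. Both mir-10 genes lie at a Hox4 gene, the 3 mir-196 genes lie beside a Hox9 gene or overlap its transcripts, and mir-615 lies at Hoxc5.

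In the GENCODE M21 annotation of GRCm38, 7 miRNA genes lay between the first and the last Hox gene of a cluster, and 6 of them were the members. The remaining gene, Gm44463, has no entry of that name in the table. Mir10a lies on chr11:96317165-96317274 (+) in the HoxB cluster, in the intergenic stretch 0.99 kb before Hoxb4. Mir10b lies on chr2:74726070-74726137 (+) in the HoxD cluster, in introns of Hoxd4 and Hoxd3 transcripts. Mir196a-1 lies on chr11:96265164-96265265 (+), between genes, 6.19 kb before Hoxb9 and 51.9 kb from Mir10a. Mir196a-2 lies on chr15:102973350-102973434 (+) in the HoxC cluster, 1.46 kb after Hoxc10 and within an intron of 1 long Hoxc5 transcript. Mir196b lies on chr6:52230081-52230165 (-) in the HoxA cluster, 1.03 kb after Hoxa10, where exons of 2 Hoxa9 transcripts overlap it. Mir615 lies on chr15:103014910-103015001 (+) in an intron of Hoxc5, 41.5 kb from Mir196a-2.

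The mature sequences, printed 5′ to 3′ from RefSeq (GRCm38.p6), are shown because the members fall into 3 seed groups and because the mir-10 and the mir-196 forms are near-identical, which bears on how their reads can be told apart. Capitals mark the seed, and all 6 members matched a mature sequence.
miR-10a-5p: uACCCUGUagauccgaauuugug
miR-10b-5p: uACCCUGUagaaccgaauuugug
miR-196a-5p: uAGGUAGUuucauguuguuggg
miR-196b-5p: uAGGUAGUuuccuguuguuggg
miR-615-3p: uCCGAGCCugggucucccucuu
miR-615-5p: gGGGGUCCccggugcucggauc
miR-100-5p, a relative of miR-10 outside the clusters: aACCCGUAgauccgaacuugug
let-7a-5p, for comparison with miR-196: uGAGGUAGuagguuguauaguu

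Counted from 1 at the 5′ end, miR-10b-5p differs from miR-10a-5p by U12A, and miR-196b-5p differs from miR-196a-5p by A12C. Both changes fall at position 12, outside the seed. The entries mir-196a-1 and mir-196a-2 give the same miR-196a-5p, so a read of it cannot be assigned to 1 of the 2 genes, while their 3p forms differ at 17 of 22 positions. The seed of miR-196 is found in let-7a-5p 1 base further in, and miR-10a-5p shares an 11-base run with miR-100-5p. The table gives 1 count per precursor, without separating 5p from 3p, and the number of mismatches allowed in the matching is not given in the sources used here.

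Hoxb8, a posterior HoxB gene, is the classical target of miR-196. The site below lies in the 3′ UTR of Hoxb8 (chr11:96284888-96284909, +) and is shown because it pairs with nearly the whole miRNA. Capitals mark the 7 bases opposite the seed.
Hoxb8 site: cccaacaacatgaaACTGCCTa
Of the 22 positions of miR-196a-5p, 21 form Watson-Crick pairs with the site and the remaining position, within the seed, forms a G-U pair, against 20 and 1 G-U pair for miR-196b-5p. A complete match to the miR-196 seed, the letters ACTACCT on the transcript strand, which overlap the match of let-7, was found in the 3′ UTR of 9 of 38 Hox genes (23.7%) and of 6.21% of 20676 coding genes. The match to the miR-10 seed, ACAGGGT, was found in 4 of 38 (10.5%) and in 12.7% of all genes, and that to miR-615-3p, GGCTCGG, in 1 of 38 (2.63%) and in 2.34%. A match is a string in the longest annotated 3′ UTR of a gene, and no mRNA was measured here.

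Total counts over all entries ranged from 2414132 to 6092460 per library. The normalized expression value is the count multiplied by 1 constant per library, which ranged from 0.397 in BM to 1.20 in the second Myo-EV library. The libraries of each vesicle group differed by more than sampling noise (chi-square per degree of freedom 93.3 for Myo-EVs and 15.9 for FFSS-Myo-EVs). The labelled cell types were checked against marker miRNAs. The 6 mesenchymal markers (mir-143, mir-145a, mir-214 and the mir-199 entries) took 18.7% of counts in OB, 11.6% to 15.1% in the vesicles and 0.917% in BM. In the vesicles most of it was mir-143, with values of 274481.7 to 372549.3 against 269505.8 in OB. Like mir-143, mir-145a was higher in the vesicles than in OB, whereas mir-214 and the mir-199 entries were lower. For mir-199a-1 the value was 11324.2 to 16349.7 in the vesicles and 87356.0 in OB. As copies of 1 name, mir-199a-1 and mir-199a-2 may hold the same reads, so these shares may count 1 miRNA more than once. Of the 6 blood cell markers, 5 were present, and they took 0.841% of counts in BM, 0.00614% in OB and at most 0.00168% in the vesicles. The muscle markers took 0.0712% to 0.0893% in the vesicles, nearly all of it mir-206, with mir-1a-1 at 0 counts in all 4. OB and BM have no replicate, so their 95% intervals (exact Clopper-Pearson for levels, exact Poisson or binomial for ratios) reflect counting error alone. For ratios of the vesicles to a cell type, the interval leaves out the spread between the vesicle libraries. Reads amplified by PCR and lacking molecular identifiers are not independent molecules.

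The clusters' miRNAs differed strongly between the 3 sources. In OB mir-10b was the highest member, followed by mir-10a, and the other 4 rested on 1 to 16 counts, in BM nearly all reads belonged to mir-10a, and in the vesicles mir-10a and the 3 mir-196 entries had similar levels with mir-615 below them. Together the 6 entries took 0.0591% of the counts in OB, 1.47% in BM, 1.17% and 1.07% in the vesicles without FFSS, and 1.13% and 1.15% in those with FFSS. Reads of miR-196a-5p may be counted in both mir-196a entries. Without mir-196a-1 the shares were 0.0590% in OB and 1.46% in BM. In the vesicles they were 0.937% and 0.870% without FFSS, and 0.869% and 0.879% with FFSS. In these bulk samples, a lower share of the cells that express a miRNA and less of it per cell cannot be told apart.

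**Figure D2:**
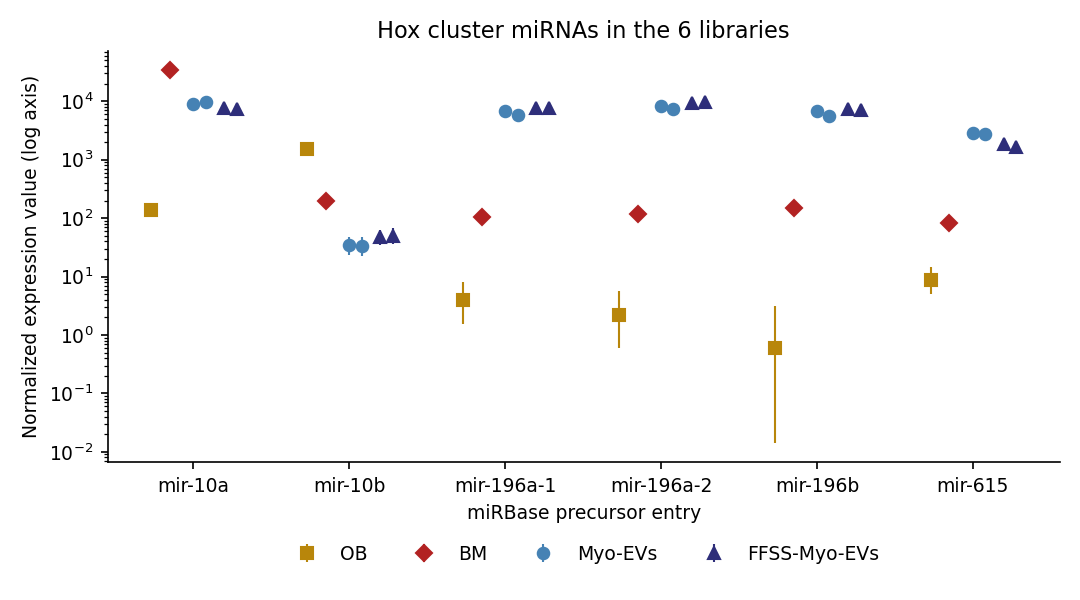
Normalized expression value (log axis) of each member in the 6 libraries, with 95% exact intervals of the count. In OB, mir-10b at 1535.8 was the highest member and mir-196b at 0.6 the lowest. In the 4 vesicle libraries, mir-10b was the lowest member, at 33.5 to 49.8, and the other 5 were at 1681.2 or above.

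The entry mir-10a is the member of the HoxB cluster next to Hoxb4, a gene of blood stem cells and the anterior trunk. Its normalized expression value was 34875.3 in BM (95% interval 34647 to 35105, 87807 counts), where it ranked 8 of 1006 entries. It was 8987.3 and 9577.8 without FFSS and 7742.5 and 7440.3 with FFSS, ranks 34 to 41. In OB it was 140.3 (123.6 to 158.6, 254 counts), rank 206. The order was thus BM, Myo-EVs, FFSS-Myo-EVs and OB. BM was 249 times OB (219.8 to 282.3) and the mean of the 4 vesicle libraries was 60.1 times OB (53.2 to 68.3) and 0.242 times BM. The blood cell markers in OB summed to 0.863% of their sum in BM, and mir-10a in OB stood at 0.402% of BM; the part of blood cells in the OB value was not tested.

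The entry mir-10b, from the HoxD cluster, was highest in OB, where mir-10a was lowest, and like mir-10a it was higher in BM than in the vesicles. Its value was 1535.8 in OB (1479 to 1594, 2781 counts) and 195.8 in BM (178.9 to 213.9, 493 counts). It was 34.1 and 33.5 in vesicles without FFSS and 46.8 and 49.8 with FFSS, on 28 to 47 counts each. OB was thus 7.84 times BM (7.12 to 8.65), and BM was 4.77 times the mean of the vesicles. The mesenchymal markers in BM summed to 4.14% of their sum in OB, and mir-10b in BM stood at 12.7% of OB. Both sums can count reads shared by the mir-199a copies more than once. The part of stromal cells in the BM value of mir-10b was not tested.

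The ratio of the 2 mir-10 entries within a library does not depend on scaling. The count of mir-10b was 10.9 times that of mir-10a in OB (9.63 to 12.5), and mir-10b made up 91.6% of both. In BM it was 0.561% of the mir-10a count, and made up 0.558% of both (0.510% to 0.610%). In the vesicles the count of mir-10b was 0.380% and 0.35% of that of mir-10a without FFSS, and 0.605% and 0.670% with FFSS. OB was the single library in which mir-10b exceeded mir-10a. The low mir-10b counts of BM and the vesicles stood at a similar small percentage of mir-10a, from which the mature form differs by 1 base; whether they include reads of mir-10a was not tested.

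The 3 mir-196 entries lie beside or within posterior Hox9 genes and share a seed. Those of HoxA and HoxC, mir-196b and mir-196a-2, also lie just after a Hox10 gene, which mir-196a-1 does not. The value of mir-196a-2 was 2.2 in OB (0.602 to 5.66, 4 counts), 119.2 in BM (300 counts), 8325.7 and 7299.8 in vesicles of unshaken cells, and 9341.4 and 9563.4 after FFSS. That of mir-196a-1 was 3.9 in OB (7 counts), 104.1 in BM (262 counts), 6757.8 and 5760.8 without FFSS, and 7817.2 and 7820.2 with it. For mir-196b, 0.6 in OB (0.014 to 3.08, 1 count), 150.1 in BM (378 counts), 6783.9 and 5523.7 without FFSS, and 7258.3 and 7136.8 with FFSS were measured. All 3 entries had the same order, with the vesicles above BM and BM above OB.

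The mean of the 4 vesicle libraries was 72.4 times BM for mir-196a-2 (64.7 to 81.4), 67.6 times for mir-196a-1 (59.9 to 76.6) and 44.5 times for mir-196b (40.2 to 49.3). Against OB the ratio was 3908 for mir-196a-2 (1526 to 14343), 1821 for mir-196a-1 (884 to 4529) and 12088 for mir-196b (2170 to 477456). The counts of 1 to 7 in OB leave these ratios open by several fold and more, and the 3 intervals overlap. BM was 53.9 times OB for mir-196a-2 (20.8 to 199.3), 26.9 times for mir-196a-1 (12.9 to 67.6) and 272 times for mir-196b (48.5 to 10766). The mir-196 entries in BM thus stood above OB beyond counting error, on 262 to 378 counts.

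Within the mir-196 family, the ratio of the mir-196b to the mir-196a-2 entry varied little in the vesicles and was higher in BM. The mir-196a-2 entry can hold reads of either mir-196a gene, so the ratio compares entries and not the output of 2 clusters. The count of mir-196b relative to mir-196a-2 was 0.815 and 0.757 without FFSS and 0.777 and 0.746 with FFSS, with a mean of 0.774 ± 0.030 (SD, n = 4). In BM the ratio was 1.26 (1.08 to 1.47), above all 4 vesicle libraries. The 5 counts of both entries in OB give a ratio of 0.25 (0.0051 to 2.53), which cannot be told apart from either. The ratio of mir-196a-1 to mir-196a-2 was 0.814 ± 0.020 (SD, n = 4) in the vesicles and 0.873 (0.737 to 1.03) in BM, a difference within counting error.

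The entry mir-615 lies in an intron of Hoxc5, in the HoxC cluster with mir-196a-2. Its value was 8.8 in OB (5.05 to 14.3, 16 counts), 83.4 in BM (72.5 to 95.5, 210 counts), 2877 and 2724.7 in vesicles without FFSS, and 1839 and 1681.2 with FFSS. The vesicles were above both cells, with a mean 27.3 times BM (23.9 to 31.5) and 258 times OB (159 to 452). BM was 9.44 times OB (5.68 to 16.8).

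Counted over the members, 5 of 6 were more than 4-fold higher in the vesicles than in OB, and 1, mir-10b, was more than 4-fold lower. Of the 444 entries with a mean of at least 10 over the 4 conditions, 25.2% were more than 4-fold higher and 24.8% more than 4-fold lower in this comparison. Against BM, 4 members were more than 4-fold higher (28.4% of entries) and both mir-10 entries more than 4-fold lower (18.9%). For mir-10a this was at the limit, with a ratio of 0.242 that became 0.251 without the second FFSS-Myo-EV library and was 0.266 for Myo-EVs alone, both less than 4-fold. Between the cells, mir-10b was more than 4-fold higher in OB than in BM (27.9%), and the other 5 members were more than 4-fold lower (13.3%). Ranked by the ratio of vesicles to OB, computed against at least 3 counts, mir-196b, mir-196a-2 and mir-196a-1 stood at 2, 3 and 6 of the 444 entries, mir-615 at 14 and mir-10a at 25. Ranked by the ratio to BM, the mir-196 entries stood at 25 to 35 and mir-615 at 48. These comparisons rest on 1 library of each cell type and have no replicate check. The entries mir-196a-1 and mir-196a-2 can hold the same reads, so the counts of members may count 1 miRNA more than once.

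**Figure D3:**
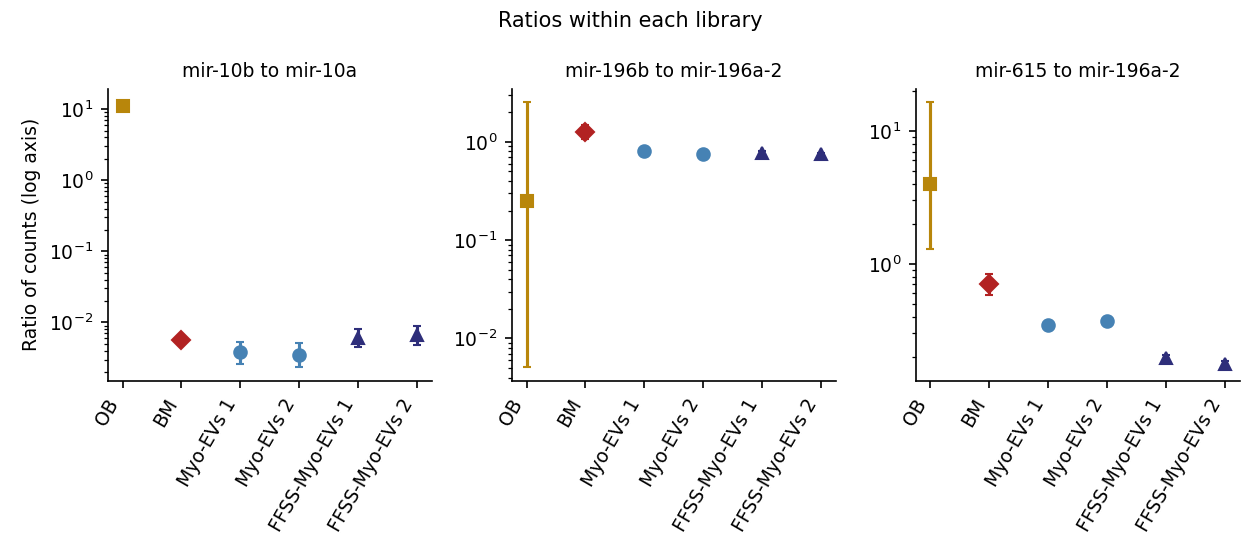
Ratio of the counts of 2 entries within each library (log axes that differ between panels), with 95% exact intervals. The ratio of mir-10b to mir-10a was 10.9 in OB and below 0.01 in the other 5 libraries, and that of mir-615 to mir-196a-2 was lower in both FFSS-Myo-EV libraries than in both Myo-EV libraries.

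The effect of FFSS on the vesicles was tested with edgeR's quasi-likelihood test on the counts of the 4 vesicle libraries, adjusted by the Benjamini-Hochberg method over the 354 entries whose vesicle mean reached 10, all members among them. Of the 6 members, mir-615 and mir-10a fell, and the other 4 did not pass the test. The share called lower among all tested entries was 18.4% and the share called higher 12.1%, together 30.5%. With 2 libraries against 2, the two-sided p of an exact permutation test can be no smaller than 0.333. The labels do not say whether the 2 libraries of a group came from separate cultures, so the spread behind the p-values may be technical. In the main fit edgeR estimated infinite prior degrees of freedom. Each entry was therefore given a spread from the tested entries together, fitted along their abundance. The p-values thus do not measure the spread of an entry's own libraries.

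For mir-615, the mean fell from 2800.9 ± 107.7 (SD, n = 2) in Myo-EVs to 1760.1 ± 111.6 (SD, n = 2) in FFSS-Myo-EVs. Both FFSS-Myo-EV libraries were below both Myo-EV libraries. In edgeR the log2 fold change was -0.79 ± 0.13 (standard error), with an adjusted p of 1.17e-08. Over 14 alternative analyses it ranged from -0.93 to -0.65, and the adjusted p stayed under 0.05 in 13. It was 0.0524 in edgeR without the second FFSS-Myo-EV library, where the lone FFSS-Myo-EV library is assumed to vary like the Myo-EV libraries.

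For mir-10a, the mean fell from 9282.6 ± 417.6 (SD, n = 2) to 7591.4 ± 213.7 (SD, n = 2), again with no overlap between the groups. In edgeR this was a log2 fold change of -0.41 ± 0.14 (standard error), with an adjusted p of 0.0162. The direction was kept in all 14 alternatives, but the adjusted p was under 0.05 in 8 of them. With the authors' scaling in edgeR the log2 fold change was -0.29 (adjusted p = 0.127), and without the first or the second FFSS-Myo-EV library the adjusted p was 0.14 and 0.547.

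For mir-10b, edgeR gave a log2 fold change of 0.39 ± 0.36 (standard error) and an adjusted p of 0.477, on 28 to 47 counts per library. Within the libraries, the ratio of mir-10b to mir-10a was 0.365% ± 0.021 (SD, n = 2) without FFSS and 0.637% ± 0.046 (SD, n = 2) with FFSS. The summed value of the blood cell markers was also low in these libraries, at 15 and 10.8 without FFSS and 50.9 and 43.2 with FFSS. The liver and serum marker mir-122 was at 6 and 4.8 without and 17.9 and 15.5 with FFSS; the part of serum or blood RNA in the mir-10b values was not tested.

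None of the mir-196 entries passed the test. The log2 fold change was 0.19 for mir-196a-1, 0.15 for mir-196a-2 and 0.096 for mir-196b, each with a standard error of 0.14, and the adjusted p in edgeR was 0.319, 0.501 and 0.682. In the deposited normalized values the FFSS-Myo-EV libraries lay above the Myo-EV libraries for all 3, whereas after TMM scaling the groups overlapped for all 3. Without the first Myo-EV library, the adjusted p was 0.0131 for mir-196a-1, 0.0278 for mir-196a-2 and 0.0278 for mir-196b, and without the second Myo-EV library it was 0.23, 0.353 and 0.862, with a log2 fold change of -0.017 for mir-196b. The copies of each miRNA name were also summed, for all names at once, which left 325 entries tested with new TMM factors. There the log2 fold change of mir-196a was 0.22 (adjusted p = 0.24 in edgeR). Members that were not summed shifted as well, mir-196b to 0.15 and mir-10a to -0.36.

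Counted over the 6 members, the groups did not overlap for 6 on the authors' scaling, 4 above and 2 below. After TMM scaling they did not overlap for 3, mir-10b above and mir-10a and mir-615 below. Both mir-196a entries were among those above on the authors' scaling and can hold the same reads. Over the 354 entries tested, the groups did not overlap for 60.5% on the authors' scaling (36.7% above, 23.7% below) and for 58.5% after TMM scaling (26.0% above, 32.5% below). The median log2 fold change of all tested entries was -0.025 with TMM and 0.094 with the authors' scaling, and with the latter 54 entries were called higher and 39 lower, against 43 and 65 with TMM.

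**Figure D4:**
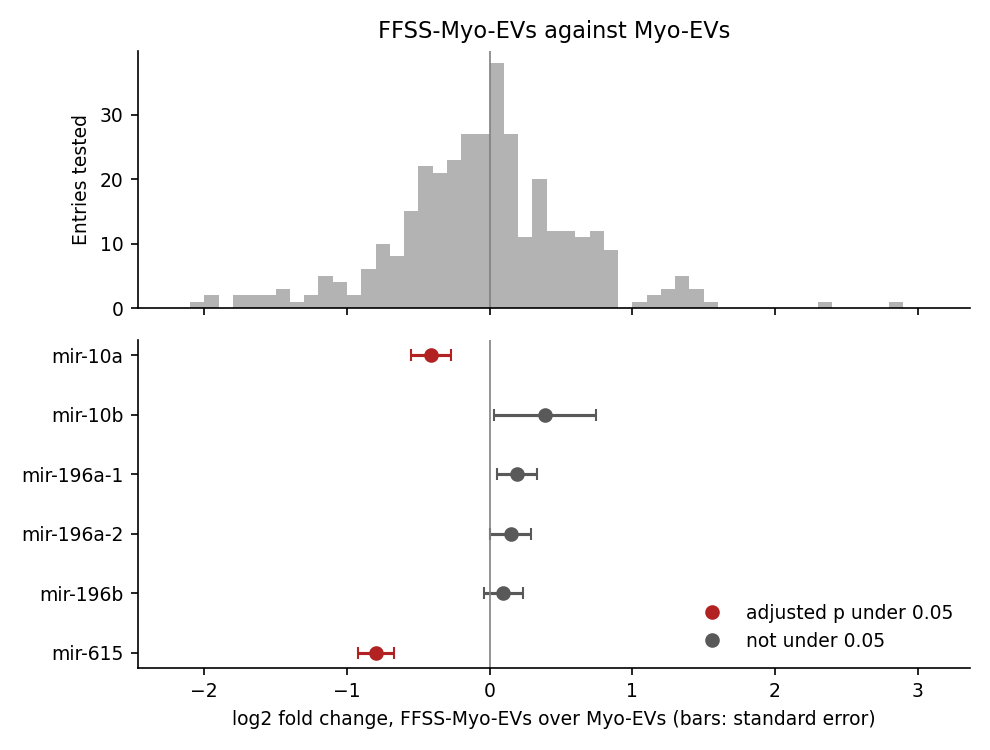
Upper panel, log2 fold changes of the 354 tested entries between FFSS-Myo-EVs and Myo-EVs (edgeR, TMM). Lower panel, the 6 members with standard errors, with red marking an adjusted p under 0.05, which held for mir-10a at -0.41 and mir-615 at -0.79.

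Ratios between entries of 1 cluster were also taken, although reads of miR-196a-5p cannot be assigned to the HoxB or the HoxC gene. For the HoxC entries, the count of mir-615 relative to mir-196a-2 was 0.346 and 0.373 without FFSS and 0.197 and 0.176 with FFSS, so that the mean ratio in FFSS-Myo-EVs was 0.518 times that in Myo-EVs. It was 0.70 in BM (0.584 to 0.838), above all vesicle libraries. For the HoxB entries, the count of mir-10a relative to mir-196a-1 was 1.33 and 1.66 without FFSS and 0.990 and 0.951 with FFSS, with a mean ratio 0.649 times that in Myo-EVs. For both ratios the FFSS-Myo-EV libraries lay below the Myo-EV libraries without overlap, and these ratios do not depend on the scaling between libraries. They were chosen after the values were seen and were not tested.

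The relatives of mir-10 outside the Hox clusters, mir-99a, mir-99b, mir-100, mir-125a, mir-125b-1 and mir-125b-2, resemble it in sequence or are encoded beside such miRNAs. They took 6.19% of counts in OB, 0.876% in BM and 4.66% to 5.51% in the vesicles. All 6 were higher in OB than in BM, by 2.70-fold for mir-99a to 35.6-fold for mir-100, the direction of mir-10b and opposite to that of mir-10a. The difference was over 4-fold for 5 of them, as it was for 27.9% of the 444 entries, whose median ratio of OB to BM was 0.930. Under FFSS 1 of 6 was called lower, mir-125a (log2 fold change -0.54, adjusted p = 0.0163 in edgeR's test), and 0 higher, with a median log2 fold change of -0.19 against -0.025 over all tested entries. At an unadjusted p under 0.05 in the same test stood mir-99a and mir-100 as well, with log2 fold changes of 0.30 and 0.28, and their adjusted p was 0.0753 and 0.109. The entries mir-125b-1 and mir-125b-2 are copies of 1 name, with values of 27100.6 and 22172.3 in OB. They may hold the same reads, so the list may count 1 miRNA more than once. The median log2 fold change of the list lies between theirs, -0.187 and -0.198.

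Profiles were compared over the 4 conditions by the root mean square difference of centred log2(value + 1), over 438 other entries. The profile of mir-10b was closest to those of mir-203, mir-504 and mir-129-2, with differences of 0.39, 0.51 and 0.61. For mir-10a the nearest entry was mir-139 (0.83), followed by mir-7091 and mir-3473e. The mir-196 entries were nearer to each other (0.38 to 0.79) than to mir-615 (1.16 to 1.77), and mir-3473c was the nearest of the other entries to each, at 1.29 to 1.73. The mir-196a entries share their 5p sequence, so shared reads can set the difference of 0.38 between them. The nearest entries to mir-615 were mir-7068 (0.83), mir-1928 (0.86) and mir-3473c (0.89), and mir-7068 had values of 17.7 in OB, 42.9 in BM and means of 2075 in Myo-EVs and 756 in FFSS-Myo-EVs. Between mir-10a and mir-10b, which share a seed, the difference was 4.79, above the median of mir-10a to all entries, 3.21. The 4 conditions hold 1 or 2 libraries each, and the differences describe these libraries. The OB values of the mir-196 entries and mir-615, 0.6 to 8.8, rest on 1 to 16 counts. The value of mir-504 was 0 in both vesicle groups. Low counts can thus affect the order of these differences.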

How the data were processed

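Small RNA of 6 libraries was sequenced by the authors, and the read groups were matched to miRBase in CLC Genomics Workbench 10.1.1. The deposited counts are whole numbers of reads for each precursor entry without normalization. The deposited normalized expression value is a signal, which the authors obtained by scaling and which equals the count times 1 constant per library. The submitters' processing notes name mm10, the same assembly as GRCm38. The miRBase release, and how reads shared by several precursors were counted, are not given in the sources used here.

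Members were matched by entry name. Members and lists were chosen with earlier results of these data known. FFSS-Myo-EVs and Myo-EVs were compared on the counts with edgeR 4.0.16 in R 4.3.3 (TMM factors, quasi-likelihood test, Benjamini-Hochberg adjustment over all entries whose normalized expression value averaged at least 10 over the 4 vesicle libraries). The standard error is the log2 fold change divided by the root of the F statistic. The fit was tested on simulated data. Ratios to OB and BM were taken from the normalized expression values, with the cell's count times its constant as the denominator and no test. Alternatives were other scalings, filters, limma 3.58.1 with a pseudocount of 1 or 10, DESeq2 1.42.0, the replicate number as a block, summed precursor copies and each vesicle library left out. Named besides the members were the 3 nearest entries in profile to each and the relatives of mir-10. Depth ranged from 2414132 to 6092460 counts.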

Additional observations from a re-analysis of the deposited data

How the results depend on the processing

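The number of the 354 entries called between FFSS-Myo-EVs and Myo-EVs was 108 and ranged from 37 to 120 when each vesicle library was left out, with 40 without the first and 37 without the second FFSS-Myo-EV library. Of the 6 members, 2 were called, against 1 with library totals, the authors' scaling or limma, and 0 to 5 when each library was left out. The log2 fold change of mir-10a passed no longer with library totals (-0.34), the authors' scaling (-0.29) or limma with a pseudocount of 1 (-0.29) or 10 (-0.29), and ranged from -0.51 to -0.30 when each library was left out. In the same fits mir-196a-1 ranged from 0.11 to 0.31, mir-196a-2 from 0.081 to 0.24, mir-196b from -0.017 to 0.25 and mir-615 from -0.93 to -0.65, and mir-10b was not called in any alternative. With the replicate block in edgeR, 110 entries were called and the log2 fold change was -0.41 for mir-10a and -0.79 for mir-615; the block changed no call of a member, and the libraries share only a number (correlation of the deviations 0.204). The share of higher calls moved from 39.8% to 58.1% with the authors' scaling, 60.6% and 60.2% with limma and 51.6% with library totals. A minimum mean of 100 left mir-10b out of the test. The causes of these changes were not tested.

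With values scaled to library totals, 4 ratios to OB or BM left the replicate spread or the counting interval, whichever was wider, and 8 stayed within. With median-of-ratios scaling 2 left and 10 stayed. The 2 ratios with the mir-196a entries summed stayed. Counting intervals of the mir-196 entries in OB are so wide that these ratios could hardly leave them. A mean without 1 of the 4 vesicle libraries cannot leave the replicate spread, so those values are no check of stability. After median-of-ratios scaling the ratio to OB was 47.6 for mir-10a and 0.0209 for mir-10b. With values scaled to library totals the ratio to BM was 0.20 for mir-10a, 55.7 for mir-196a-1, 59.7 for mir-196a-2 and 36.7 for mir-196b. With both mir-196a entries as the denominator, mir-196b stood at 0.427. Depth limits the OB values of the mir-196 entries, which rest on 1 to 7 counts, and mir-10b in the vesicles.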
